A study of Mus musculus with 9 samples.

Results

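The comparison described here sets CRISPR_1G2, a clone of Panc02 cells labelled wild type after CRISPR, against the parental Panc02 line, over all genes. Its members were the 3 libraries titled as that clone and the 3 titled as parental, 6 of the 9 libraries of the series. Panc02 is a mouse pancreatic ductal adenocarcinoma line, and the series asked what VPAC2, the receptor for vasoactive intestinal peptide encoded by Vipr2, does in such cells. The other 3 libraries, KO_1E7, came from a clone labelled as a VPAC2 knockout and entered the fit to share the estimate of spread. The parental cells carried the genotype label of wild type and no edit, and all groups grew in DMEM with 10% FBS and no further treatment. CRISPR_1G2 is 1 clone, so its difference from the parental line is that of 1 cell lineage and not of the edit or of clones in general. The genotype label of CRISPR_1G2 says wild type, whereas the design text counts both clones among the CRISPR knockout cells, and the label was followed. Nothing in the labels says that replicates came from separate cultures, so the spread behind each p-value is that of these libraries and may be technical.

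A clone is grown out from a single cell of a line. A cultured tumour line is a mixed population, and its cells differ in chromosome content, in DNA methylation and in which genes they keep silent. A bulk library of the line averages over those cells, whereas a library of a clone reads the state of the founder and its descendants. In bulk samples, fewer cells that express a gene and less RNA of it per cell cannot be told apart. A clone that went through the editing procedure without carrying the intended mutation is commonly kept as a control for the steps of cloning. The values below show how far CRISPR_1G2, labelled wild type, stood from the line it came from. Whether this clone lacks the edit cannot be told from these counts.

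Every one of the 40 genes that passed the test was lower in CRISPR_1G2, and 14 of them stood at under 5% of the parental level. The 300 bases around the start site, from 250 before to 50 after it, were read for the called genes from the RefSeq promoter table of GRCm38.p6, in which 33 of the 40 had an entry. The promoters of 4 of the genes that held their call under every setting tried are shown, since their CpG content differs widely. They are written 5′ to 3′ in the direction of the gene, and capitals mark the CpG dinucleotides, the sites of DNA methylation. The Thbs2 promoter lies on the minus strand at chr17:14694213-14694512, that of Tnc on the minus strand at chr4:64046966-64047265, that of Hexa on the plus strand at chr9:59539290-59539589 and that of Igsf3 on the plus strand at chr3:101376875-101377174.
Thbs2: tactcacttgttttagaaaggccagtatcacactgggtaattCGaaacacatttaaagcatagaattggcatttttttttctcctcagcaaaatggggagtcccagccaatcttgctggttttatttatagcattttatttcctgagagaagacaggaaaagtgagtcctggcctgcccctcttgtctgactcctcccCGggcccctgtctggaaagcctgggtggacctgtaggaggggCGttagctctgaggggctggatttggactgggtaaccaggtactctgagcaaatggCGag
Tnc: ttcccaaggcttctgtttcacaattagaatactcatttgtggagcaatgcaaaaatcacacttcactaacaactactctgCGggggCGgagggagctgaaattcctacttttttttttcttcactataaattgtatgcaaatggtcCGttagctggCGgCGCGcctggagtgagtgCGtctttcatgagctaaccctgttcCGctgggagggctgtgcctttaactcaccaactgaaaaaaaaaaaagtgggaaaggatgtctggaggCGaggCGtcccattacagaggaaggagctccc
Hexa: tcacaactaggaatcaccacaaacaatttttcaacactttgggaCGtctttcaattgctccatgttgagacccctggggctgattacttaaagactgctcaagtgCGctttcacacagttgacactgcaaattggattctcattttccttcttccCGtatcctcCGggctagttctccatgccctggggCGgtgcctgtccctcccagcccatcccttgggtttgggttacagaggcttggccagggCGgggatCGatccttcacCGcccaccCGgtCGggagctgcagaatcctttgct
Igsf3: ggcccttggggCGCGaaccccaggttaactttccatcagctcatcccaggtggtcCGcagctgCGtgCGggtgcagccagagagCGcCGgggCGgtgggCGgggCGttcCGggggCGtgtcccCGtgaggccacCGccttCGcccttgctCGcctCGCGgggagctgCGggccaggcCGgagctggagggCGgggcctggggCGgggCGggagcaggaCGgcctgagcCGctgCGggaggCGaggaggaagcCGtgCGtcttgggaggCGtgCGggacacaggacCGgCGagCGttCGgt
Thbs2 held 4 CpG sites in this window, Tnc and Hexa 10 each and Igsf3 35.

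The called genes with an entry had a median of 10 CpG sites in this window, against 20 over all tested genes with an entry. These sets were not matched for expression level. The median ratio of observed to expected CpG was 0.56 over the 33 promoters and 0.76 over the 10564 tested genes with an entry. A ratio of at least 0.6, a common mark of a CpG island, was found in 30.3% of the called genes and in 69.9% of all. The letters TATAAA, the core of the TATA box, stood on either strand in 24.2% of the called promoters (8 of 33, those of Thbs2 and Tnc among them) and in 7.43% of all. GGGCGG, the GC box bound by SP1, stood in 45.5% against 62.7%, and TGACG, a half-site of the cAMP response element, in 9.09% against 31.4%. The whole element TGACGTCA, which contains that half-site, stood in 0 of 33 against 3.25%, and TGACTCA, bound by AP-1, in 6.06% against 3.76%. These are matches of letters anywhere in the window, whatever their distance from the start, and were not tested. For 29 of the 33 genes the start lay within 1000 bases of the start in the deposited table. The promoters with TATAAA included those of Slco2a1 and Gm26849, whose starts lay 19775 and 45508 bases from the deposited ones.

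Read counts on genes ran from 27898705 to 41305893 in the 6 libraries, and 15766 genes were tested. The libraries fell apart along more than the groups. Names in the deposited table gave each library a date or the word NSG, and on the first principal component of the 6 libraries (51.1% of the variance) parental 3 and CRISPR_1G2 3, the NSG-named ones, stood at 63.1 and 75.7 while the other 4 stood at -44.8 to -15.8. The second component (25.7%) separated the groups, with the parental libraries at 18.3 to 47.5 and the CRISPR_1G2 libraries at -45.2 to -24.3. Parental 3 also had 19.7% of its gene counts on ribosomal RNA and related genes, against 0.808% to 1.58% in the other 8 libraries. For 0.146% of tested genes the difference between the groups was more negative in the NSG-named than in the dated libraries (edgeR, adjusted p of 0.05), but with 1 NSG-named library per group this cannot be told apart from a difference in parental 3 alone. Because of this, values are given per library in the order 1, 2 and 3, as CPM, the read count scaled to a common library size by edgeR's TMM method, and differences also within the 2 pairs that share a name word: CRISPR_1G2 1 and parental 2, named 6-3-22, and CRISPR_1G2 3 and parental 3, named NSG.

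The receptor gene that the series edited was almost silent in these libraries. The parental libraries held 6, 3 and 12 counts of Vipr2 and the CRISPR_1G2 libraries 1, 13 and 12. Pooled, this was 21 against 26 counts, 1.46 times more per library size in the clone with an exact 95% interval of 0.79 to 2.74, which covers counting error only. The interval includes no difference, and counts this low say nothing about an edit. Among 12 genes for the VIP and PACAP ligands, their receptors and partners, 3 had enough counts to test (Vipr2, Ramp1 and Ramp3), and 0 passed edgeR's quasi-likelihood test. Vip, the ligand gene, had 5, 1 and 19 against 1, 2 and 12 counts.

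The labelled cell type was checked against duct markers, of which 13 of 20 were expressed well enough to test and 0 were called. Krt19, a duct keratin, stood at 139, 172 and 84.5 CPM in parental and at 180, 242 and 97.5 CPM in CRISPR_1G2. Spp1, the gene of osteopontin, stood at 3782, 3706 and 2266 against 2756, 2921 and 1169 CPM. Both duct genes were lowest in the NSG-named library of their group. In the 6 libraries, islet markers summed to at most 0.111 CPM and acinar markers to 1.56 to 3.53 CPM.

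By edgeR's test with Benjamini-Hochberg adjustment, 40 genes passed at an adjusted p of 0.05, which is 0.254% of those tested. All 40 were lower in CRISPR_1G2, by at least 2-fold, and 0 were higher. At an unadjusted p of 0.05 there were 696 lower (4.41%) and 522 higher (3.31%) genes, and DESeq2 called 0.841% of 20687 genes, 137 lower (0.662%) and 37 higher (0.179%). Over all genes the median log2 fold change was 0.02. In each of the 40 the 3 libraries of the clone lay below all 3 parental ones, which held for 6.45% of all tested genes, and 6.64% lay above. Each was also lower within both pairs that share a name word, against 28.7% of tested genes. Since the 40 were picked by a test on the same libraries, both counts follow largely from that choice and are not separate support. The pooled level in the clone had a median of 7.55% of the parental one, taking 3 counts per group where the clone had 0. It was under 10% for 25 genes and at 25% or more for only 5 of the 40 (Dnm1, Cstf2t, Cyp39a1, Zfp493 and Axl). The genes lay on 16 chromosomes, 6 of them on the X, and 37 were protein-coding.

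**Figure D1:**
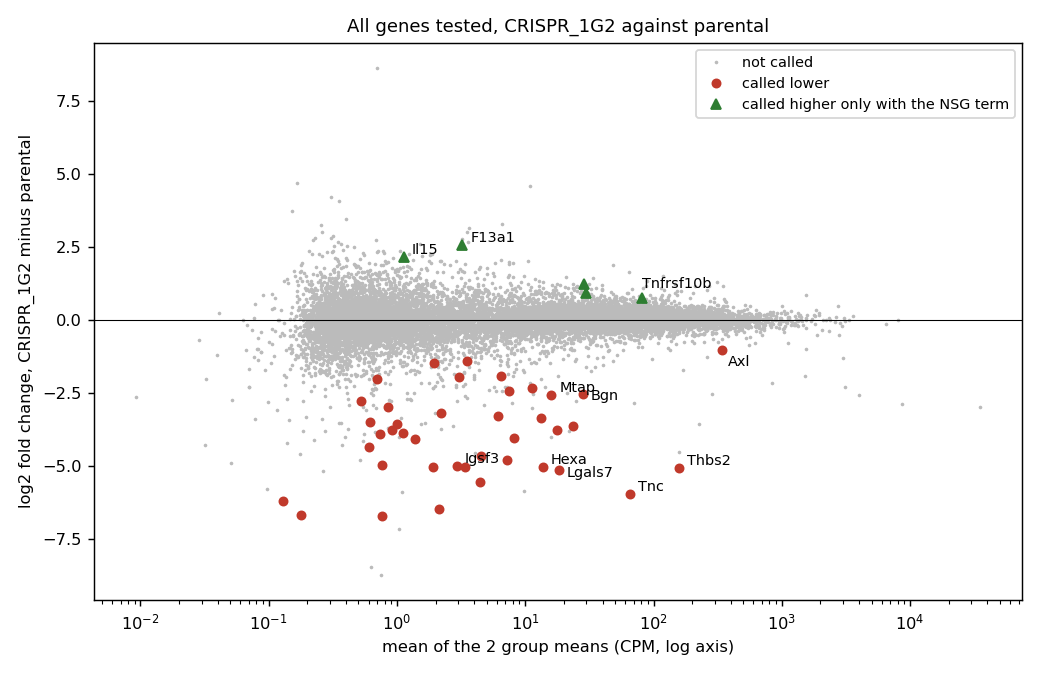
Log2 fold change of CRISPR_1G2 minus parental against the mean of both group means in CPM (log axis), 1 point per gene of the 15766 tested. Red points are the 40 genes called by edgeR, all below 0, with Thbs2 and Axl among the most abundant. Green triangles are the 5 genes that edgeR called higher with a term for the NSG-named libraries and not in the fit without it.

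The call depended on how many libraries entered, more than on the scaling, which left 37 or 38 calls under both other methods tried. With a term for the word NSG, 50 genes passed (45 lower, 5 higher), and 38 of the 40 were among them, while Klhl34 and Gm26849 were not. In a fit of the 6 libraries alone 16 passed, 14 lower and 2 higher, and 14 of the 38 genes still tested were called lower. With a block for the replicate number in the 6 libraries alone, 180 passed, 95 lower and 85 higher, and 36 of the 38 were called lower. With that block in all 9 libraries 37 passed, 36 lower and 1 higher, and 31 of the 40 were among them, while Bgn, Cyp39a1, Dnm1, Cnksr2 (deposited as Ksr2), Naip6, Zfp493, Zfp976, Klhl34 and Gm26849 were not. With a block for each name word 33 passed, and 22 of the 40 were among them. Without CRISPR_1G2 1 or 2 the calls fell to 15 and 18, without KO_1E7 1 or 3 to 19 each, and without parental 1 they rose to 71, of which 42 were higher. In each of these leave-one-out fits all 40 genes stayed fitted lower. Arhgdib, Dmd, Fkbp10, Hexa, Igsf3, Lgals7, Slco2a1, Thbs2 and Tnc were among the genes that passed in all 23 alternatives.

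**Figure D2:**
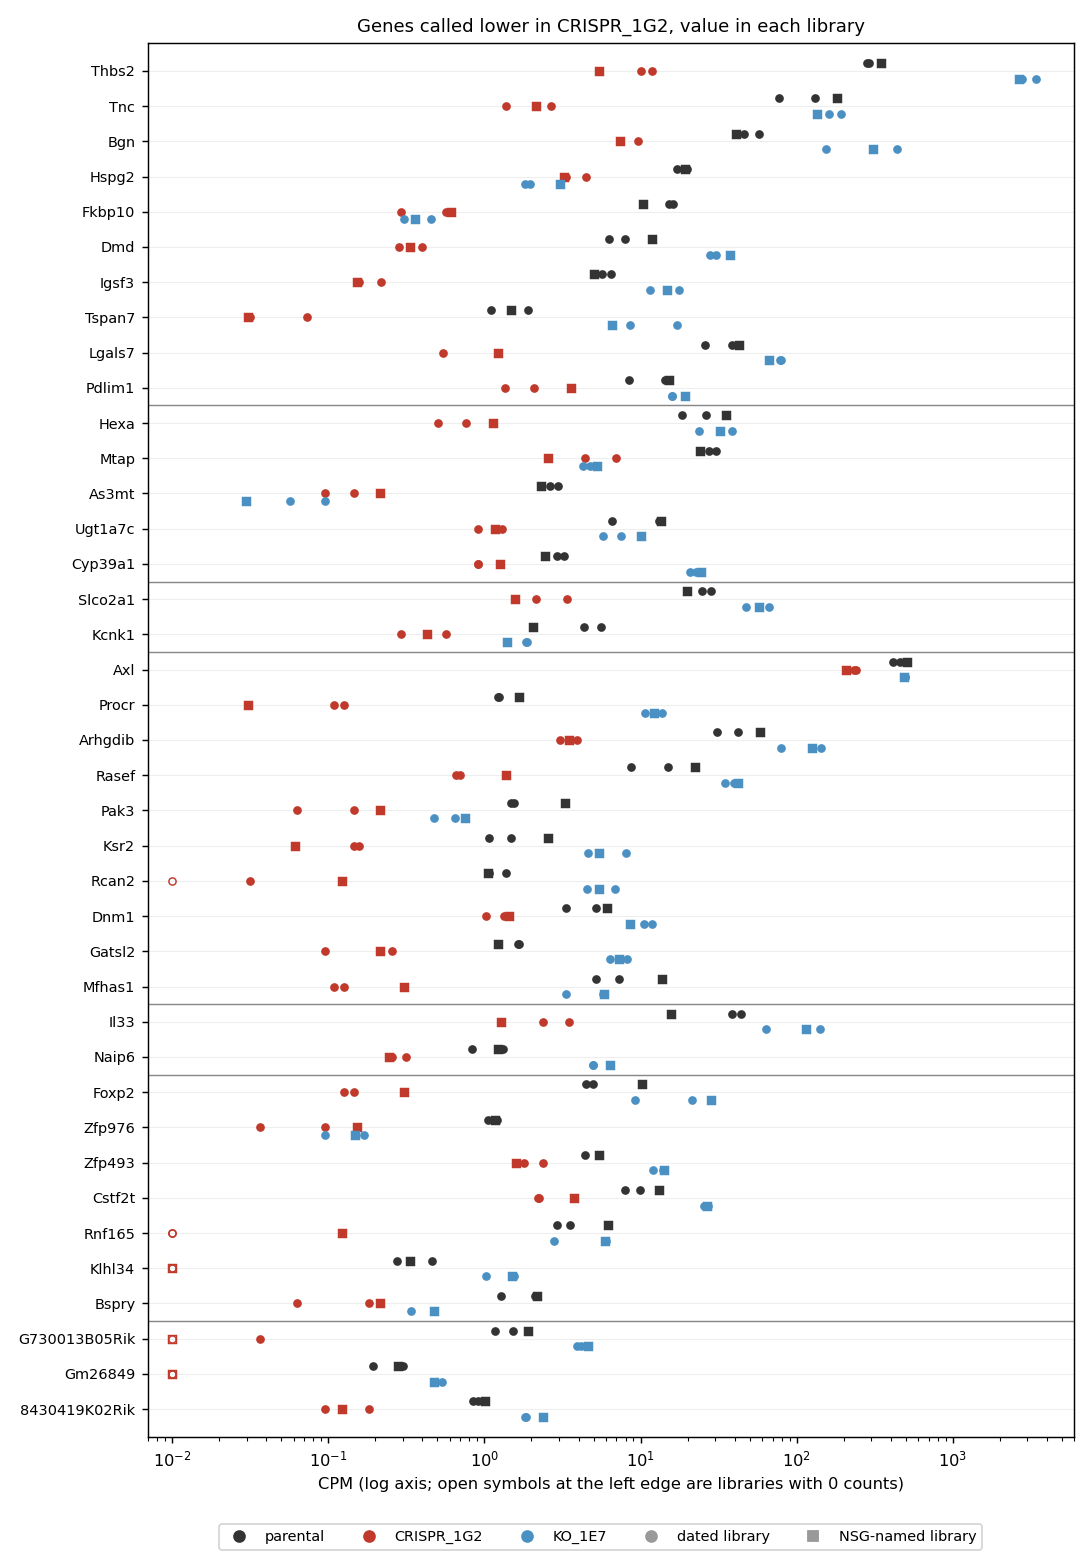
CPM on a log axis for 39 of the 40 called genes in each of the 9 libraries, circles for dated and squares for NSG-named libraries, grouped by role from top to bottom as in the text. Black (parental) and red (CRISPR_1G2) points do not overlap in any row, and open symbols at 0.01 stand for libraries with 0 counts.

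A group of 10 of the 40, put together by hand after their values were seen, covers the extracellular matrix, a helper of collagen folding, the cell surface and proteins that tie actin to it, at 1.62% to 19.6% of the parental level. No share over all genes can be set beside such a group. The matrix is the mesh of secreted proteins around cells, and Panc02 cells make parts of it themselves. Thbs2 encodes thrombospondin-2, a secreted protein that binds matrix and restrains blood vessel growth. It stood at 289, 281 and 347 CPM in parental and at 9.99, 11.8 and 5.43 CPM in CRISPR_1G2 (305 ± 36.1 against 9.06 ± 3.26, SD, n = 3 libraries). The clone was 34.0-fold lower, and its highest library lay far under the lowest parental one. On the log2 scale the difference was -5.07 ± 0.31 (SE, adjusted p = 0.000335). KO_1E7, measured against the same parental libraries, had 2937 ± 403 CPM of Thbs2 (log2 3.27, adjusted p = 0.00276). Of all tested genes, 5.42% were called in that comparison, 2.54% higher and 2.87% lower.

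Tnc encodes tenascin-C, a large matrix protein of wounds and tumour stroma. Its values were 131, 77.4 and 181 CPM in parental and 1.38, 2.68 and 2.14 CPM in the clone, 61.8-fold lower (log2 -5.96 ± 0.40, adjusted p = 0.00039). The parental libraries differed among themselves by more than 2-fold, and all lay above every CRISPR_1G2 library. In KO_1E7 Tnc stood at 162 ± 28.6 CPM (log2 0.32 against parental, adjusted p = 0.583). The gene 8030451A03Rik, which overlaps Tnc, was at log2 -3.82 ± 1.04 (adjusted p = 0.369), and without strand its reads cannot be told from those of Tnc.

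Bgn, the gene of the small proteoglycan biglycan, stood at 46.1, 57.0 and 40.7 CPM in parental and at 7.34, 9.68 and 7.42 CPM in the clone (log2 -2.56 ± 0.36, adjusted p = 0.0287). KO_1E7 had 301 ± 144 CPM. Hspg2 encodes perlecan, the heparan sulphate proteoglycan of basement membranes, and stood at 19.7, 17.1 and 19.4 against 3.30, 4.44 and 3.24 CPM (log2 -2.35 ± 0.25, adjusted p = 0.00698). KO_1E7 was low for Hspg2 as well, at 2.27 ± 0.676 CPM. The proteoglycan genes thus stood at 17.0% and 19.6% of the parental level in CRISPR_1G2, while in KO_1E7 Bgn was above and Hspg2 below it. The Bgn call was lost with the replicate block and without the NSG-named libraries, any 1 of the 6 libraries compared or KO_1E7 3, among others (adjusted p up to 0.209). That of Hspg2 was lost without CRISPR_1G2 1 (0.0572).

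Fkbp10 encodes an isomerase of the endoplasmic reticulum that helps collagen fold. It stood at 15.2, 16.1 and 10.4 CPM in parental and at 0.291, 0.567 and 0.611 CPM in CRISPR_1G2, 27.8-fold lower (log2 -4.81 ± 0.36, adjusted p = 0.000729), and KO_1E7 was at 0.371 ± 0.0753 CPM. Dmd, the gene of dystrophin, which ties the actin cytoskeleton to the membrane, stood at 7.98, 6.29 and 11.8 against 0.399, 0.284 and 0.336 CPM. For Dmd the fit gave log2 -4.67 ± 0.31 (adjusted p = 0.00039), while KO_1E7 was at 31.7 ± 4.91 CPM. The low levels of the clone thus met high levels in KO_1E7 for Dmd and similarly low ones for Fkbp10.

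Igsf3, which codes for a membrane protein with immunoglobulin domains, stood at 5.63, 6.46 and 5.0 against 0.218, 0.158 and 0.153 CPM (log2 -5.0 ± 0.29, adjusted p = 0.000308). Lgals7, the gene of the small sugar-binding protein galectin-7 of stratified epithelia, stood at 38.6, 25.7 and 42.3 against 0.545, 1.23 and 1.2 CPM (log2 -5.14 ± 0.33, adjusted p = 0.00039). Tspan7, a tetraspanin of the cell membrane, fell to 4 counts over the 3 CRISPR_1G2 libraries from 163 in parental. The clone libraries of these 3 genes were all at 1.23 CPM or lower. Pdlim1, the gene of an actin-associated PDZ and LIM protein, stood at 14.3, 8.39 and 15.3 against 1.34, 2.08 and 3.60 CPM and passed narrowly (adjusted p = 0.0495). It lost its call with other size factors, among others. Tspan7 lost its own without any 1 CRISPR_1G2 library and without the NSG-named libraries, among others (adjusted p up to 0.109).

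The median of the matrix list did not move down with these genes, and its members were split between the directions. Of 43 genes of collagen and matrix, 36 were tested, 4 were called lower (Thbs2, Tnc, Hspg2 and Bgn) and 0 higher, against 0.254% called over all genes. The median log2 fold change of the list was 0.19 against 0.02 over all genes. Without overlap, 7 of the 36 lay lower and 5 higher, against 6.45% and 6.64% of all tested genes. DESeq2 called 6 lower and 1 higher (0.662% and 0.179% over all genes), and 2 of the lower ones missed the edgeR threshold. They were Fbln2, the gene of fibulin-2, with 12.1, 6.65 and 16.8 against 2.03, 2.71 and 2.53 CPM (adjusted p = 0.0907), and Col8a1, a short-chain collagen of vessel walls, with 9.84, 10.1 and 13.6 against 1.78, 2.68 and 1.77 CPM (adjusted p = 0.149). Fn1, the gene of fibronectin, stood at 1987, 1390 and 2774 against 651, 932 and 1462 CPM, so that the groups overlapped, and did not pass (adjusted p = 0.515). Col7a1, the anchoring collagen of epithelial basement membranes, lay the other way at 21.8, 21.6 and 19.3 against 95, 99.4 and 34.3 CPM, which missed the edgeR threshold (log2 1.87 ± 0.51, adjusted p = 0.369) and was the higher call of DESeq2 (adjusted p = 0.0229).

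Enzymes of metabolism and of the lysosome gave 5 called genes. Hexa encodes the alpha subunit of beta-hexosaminidase, the lysosomal enzyme that trims GM2 ganglioside. It stood at 26.1, 18.5 and 35.3 CPM in parental and at 0.763, 0.504 and 1.13 CPM in CRISPR_1G2, 33.1-fold lower (log2 -5.05 ± 0.39, adjusted p = 0.00093). KO_1E7 was at 31.4 ± 7.61 CPM (log2 0.24 against the same parental libraries, adjusted p = 0.694). Tmem202, which overlaps Hexa, was at log2 -2.30 ± 0.92 (adjusted p = 0.604). The gene pair could share reads, since the counts carry no strand.

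Mtap encodes the phosphorylase that recycles methylthioadenosine into methionine, and it lies beside Cdkn2a, a tumour suppressor locus often lost in pancreatic cancer. Mtap stood at 27.6, 30.3 and 24.1 against 6.94, 4.38 and 2.56 CPM (log2 -2.56 ± 0.33, adjusted p = 0.0217), so 16.5% of the parental level remained. KO_1E7 was at 4.77 ± 0.508 CPM. Cdkn2a itself was rare, at 0.519, 0.193 and 0.556 against 0.182, 0.158 and 0.122 CPM, and did not pass (log2 -1.45 ± 0.51, adjusted p = 0.562). The Mtap call was lost in the fit of the 6 libraries alone, and without parental 2, CRISPR_1G2 2 or any 1 KO_1E7 library (adjusted p up to 0.154).

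As3mt, an arsenic methyltransferase, stood at 2.95, 2.62 and 2.31 against 0.145, 0.0946 and 0.214 CPM (adjusted p = 0.00574) and was at 0.0604 ± 0.0326 CPM in KO_1E7. Ugt1a7c, one of several glucuronosyltransferase genes that share their last exons, stood at 13.2, 6.54 and 13.6 against 0.908, 1.29 and 1.16 CPM (adjusted p = 0.00875), and reads of the shared exons make its own level uncertain. Cyp39a1, a hydroxylase of oxysterols in bile acid synthesis, was among the smallest called differences, at 3.2, 2.90 and 2.45 against 0.908, 0.914 and 1.25 CPM (log2 -1.47 ± 0.21, adjusted p = 0.0319). In KO_1E7 Cyp39a1 was at 22.6 ± 1.81 CPM. The As3mt call was lost without CRISPR_1G2 1 and with a block for each name word (adjusted p up to 0.0581). The Ugt1a7c call was lost in the fit of the 6 libraries alone, without the NSG-named libraries, and without CRISPR_1G2 1 or 2. That of Cyp39a1 was lost in the 6 libraries alone, with the replicate block and with a block for each name word. It was also lost without parental 1 or 2, CRISPR_1G2 1 or 2, or any 1 KO_1E7 library.

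Proteins that carry or pass small molecules gave 3 called genes. Of these, 2 are described. Slco2a1, the transporter that takes up prostaglandins, stood at 28.3, 24.7 and 19.9 against 2.14, 3.37 and 1.56 CPM (log2 -3.36 ± 0.30, adjusted p = 0.0025). Kcnk1, a two-pore potassium channel gene, stood at 4.32, 5.60 and 2.06 against 0.291, 0.567 and 0.427 CPM (adjusted p = 0.0282). Kcnk1 lost its call in the fit of the 6 libraries alone, with a block for each name word, and without any 1 library other than parental 3.

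Receptors and signalling proteins gave 10 called genes, of which Axl had by far the highest level. Axl is a receptor tyrosine kinase of the TAM family that binds GAS6 and is a YAP target. It stood at 458, 415 and 505 CPM in parental and at 239, 232 and 208 CPM in CRISPR_1G2, 2.04-fold lower, the smallest called difference (log2 -1.02 ± 0.12, adjusted p = 0.0129). The spread within each group was small beside the gap, and KO_1E7 stood at 491 ± 3.28 CPM (adjusted p = 0.671 against parental). Of 16 tested YAP and TEAD targets, Axl was the 1 called, against 0.254% called over all genes, and the list's median log2 fold change was 0.01. The Axl call was lost in the fit of the 6 libraries alone and with a block for each name word. It was also lost without CRISPR_1G2 1 or 2, or KO_1E7 1 or 3 (adjusted p up to 0.138).

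Arhgdib, an inhibitor that keeps small GTPases in the cytosol, stood at 41.9, 30.8 and 58.1 against 3.89, 3.03 and 3.48 CPM (log2 -3.65 ± 0.31, adjusted p = 0.00187). Rasef, a Rab-like GTPase gene, stood at 14.9, 8.64 and 22.4 against 0.654, 0.693 and 1.37 CPM (adjusted p = 0.00574). Procr encodes the endothelial receptor of protein C and fell from 1.23, 1.24 and 1.67 CPM to 0.109, 0.126 and 0.0305 CPM (adjusted p = 0.00574). In KO_1E7 these 3 genes were at 116 ± 33.3, 38.8 ± 3.79 and 12.2 ± 1.51 CPM, above the parental means of 43.6, 15.3 and 1.38 CPM. Mfhas1, a gene with leucine-rich repeats, stood at 7.24, 5.16 and 13.7 against 0.109, 0.126 and 0.305 CPM, 47.0-fold lower (log2 -5.55 ± 0.57, adjusted p = 0.00574). Rasef, Procr and Mfhas1 lost their call in the fit of the 6 libraries alone (adjusted p = 0.0875, 0.111 and 0.0610).

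The signalling genes Pak3 (a p21-activated kinase), Dnm1 (dynamin 1), Rcan2 (a calcineurin regulator) and Cnksr2 (a scaffold of Ras signalling) were all low in parental and lower in the clone. Their parental means were 2.10, 4.88, 1.17 and 1.70 CPM, against 0.141, 1.26, 0.0512 and 0.121 CPM in CRISPR_1G2. Gatsl2, named Castor2 in the GENCODE annotation, went from 1.51 ± 0.246 to 0.188 ± 0.083 CPM (adjusted p = 0.0137). All 5 lost their call without CRISPR_1G2 1 and in a fit of the 6 libraries alone, and their highest adjusted p over the alternatives lay between 0.154 and 0.253.

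Il33 and Naip6 were the 2 called genes of cytokines and innate sensing. Il33 encodes an alarmin of the IL-1 family that is stored in the nucleus and acts on lymphoid cells and macrophages. It stood at 38.4, 44.2 and 15.6 CPM in parental and at 2.36, 3.47 and 1.28 CPM in CRISPR_1G2, 13.9-fold lower (log2 -3.79 ± 0.52, adjusted p = 0.0282). The NSG-named library was the lowest of each group, and the groups did not overlap. KO_1E7 was at 106 ± 39.4 CPM. Among 23 tested chemokines and cytokines, Il33 was the 1 called, against 0.254% called over all genes. Its call was lost in the fit of the 6 libraries alone and without any 1 library but parental 3, among others (adjusted p up to 0.173). Naip6, a sensor of bacterial ligands with near-identical relatives, stood at 1.31, 0.828 and 1.2 against 0.254, 0.315 and 0.244 CPM (adjusted p = 0.0387), and its reads may be shared with those relatives.

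Of the remaining coding genes, Foxp2, a forkhead transcription factor, stood at 4.45, 4.97 and 10.2 against 0.145, 0.126 and 0.305 CPM (log2 -5.05 ± 0.61, adjusted p = 0.0147). Mdfic, the tested gene next to Foxp2, was at log2 -2.71 ± 0.58 and did not pass (adjusted p = 0.189). Rnf165, a ubiquitin ligase, had 457 counts over the parental libraries and 4 over those of the clone, all in CRISPR_1G2 3. The zinc finger genes Zfp976 and Zfp493 fell to 8.58% and 37.3% of the parental level, and Cstf2t, a retrocopy of a polyadenylation factor, to 26.8%. Zinc finger genes and retrocopies have close relatives that may share reads. Klhl34, on the X beside Cnksr2, had 39 counts over the parental and 0 over the CRISPR_1G2 libraries, at least 11.0-fold lower with 3 counts over the group as the floor. Bspry, a gene with a B-box and a SPRY domain, stood at 8.24% of the parental level. All 7 of these genes, and Naip6, lost their call without CRISPR_1G2 1 or 2, among others.

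Among 3 called non-coding transcripts, G730013B05Rik on chromosome 16 had the lowest share of its parental level. Its counts were 56, 42 and 68 in the parental and 1, 0 and 0 in the CRISPR_1G2 libraries, a pooled ratio of 140-fold with an exact 95% counting interval of 24.9 to 5578. KO_1E7 had 146, 205 and 155 counts. The call of G730013B05Rik was lost in the fit of the 6 libraries alone (adjusted p = 0.0647). Gm26849, with 28 parental counts and 0 in the clone, was at least 7.89-fold lower and kept its call in the fewest alternatives (4 of 20). 8430419K02Rik stood at 14.2% of the parental level and lost its call in the fit of the 6 libraries alone and without any 1 CRISPR_1G2 library, among others.

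**Figure D3:**
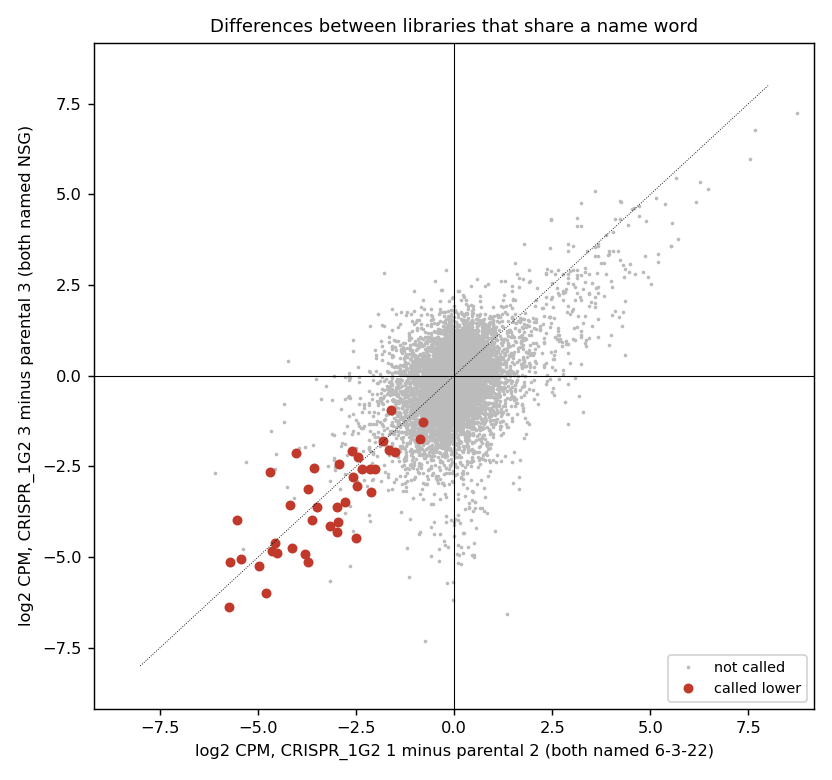
Log2 difference of CPM between CRISPR_1G2 1 and parental 2 (both named 6-3-22, x axis) and between CRISPR_1G2 3 and parental 3 (both named NSG, y axis), 1 point per tested gene. All 40 called genes (red) lie below 0 on both axes, while the uncalled points at the upper right include the genes of white blood cells that were near 0 in parental 2 and 3.

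No gene was called higher in the edgeR fit of all 9 libraries, and the values behind that 0 differed from those behind the 40. By a gap of at least 4-fold between the nearest libraries of the groups (CPM plus 0.1, a rule chosen after the values were seen), 30 genes lay lower in CRISPR_1G2, of which 26 were called, and 4 lay higher. The 4 were 3830403N18Rik, Gm3654, Zfp979 and 1700012B09Rik. 3830403N18Rik, on the X, stood at 0.847, 0.994 and 0.723 CPM in parental and at 20.1, 20.8 and 21.5 CPM in the clone (log2 4.60 ± 1.13, adjusted p = 0.297). Zfp979, a zinc finger gene, stood at 1.58, 1.21 and 0.834 against 13.2, 13.2 and 9.59 CPM (log2 3.30 ± 1.02, adjusted p = 0.460). 1700012B09Rik stood at 0.574, 0.580 and 1.08 against 7.66, 6.08 and 5.98 CPM (log2 3.13 ± 0.52, adjusted p = 0.0726). Gm3654 went from 0 counts over the parental libraries to 128 over those of the clone, at least 50.5-fold higher (edgeR adjusted p = 0.189). DESeq2 called 1700012B09Rik and Gm3654 higher (adjusted p = 8.13e-08 and 4.72e-05), against 0.179% over all genes. It gave no adjusted p for 3830403N18Rik and Zfp979. The gap between the groups follows from the rule that picked the 4. Within each group the libraries differed by less than that gap.

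In KO_1E7 the 4 genes were spread unevenly over the replicates. KO_1E7 2 stood at 15.0% to 23.3% of the CRISPR_1G2 mean for each of them, while KO_1E7 1 and 3 stood under 10%. For 3830403N18Rik the KO_1E7 libraries had 0.170, 4.85 and 0.179 CPM, and for Zfp979 0.113, 2.27 and 0.0597 CPM. Since all 9 libraries shared 1 estimate of spread, that spread entered the test of CRISPR_1G2 against parental. Without KO_1E7 2, 4 genes were called higher and 26 lower, and 3 of the 4 higher ones were 3830403N18Rik, Zfp979 and 1700012B09Rik. In the fit of the 6 libraries alone 2 genes were called higher, both of these 4. The reason for the levels in KO_1E7 2 was not tested.

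With the term for the NSG-named libraries 5 genes passed as higher in edgeR (0.0317% of those tested). DESeq2, without that term, also called Il15, Tnfrsf10b and F13a1 higher (adjusted p = 3.64e-05, 2.12e-05 and 2.37e-05), against 0.179% over all genes. It did not call Rnf128 or B4galnt4 (adjusted p = 0.0900 and 0.112). That count was 0 without parental 3, CRISPR_1G2 1 or CRISPR_1G2 2, 1 without CRISPR_1G2 3, 2 without parental 2 or KO_1E7 1, 24 without KO_1E7 2, 49 without parental 1 or KO_1E7 3 and 181 in the 6 libraries alone. Il15, a cytokine that keeps natural killer cells and memory T cells alive, stood at 0.464, 0.359 and 0.417 against 1.92, 1.92 and 1.68 CPM (log2 2.14 ± 0.34, adjusted p = 0.049). Tnfrsf10b, the death receptor of TRAIL and a p53 target, stood at 59.4, 65.8 and 57.8 against 99.4, 106 and 104 CPM (log2 0.75 ± 0.12, adjusted p = 0.0498). Rnf128, a ubiquitin ligase of the X, went from 20.7 ± 5.98 to 39.2 ± 5.79 CPM and B4galnt4, a glycosyltransferase, from 17.2 ± 6.54 to 40.2 ± 10.3 CPM. F13a1, a coagulation factor chain that macrophages also make, stood at 1.67, 0.635 and 0.500 against 5.12, 7.63 and 3.85 CPM (adjusted p = 0.0369). The same fit added 7 lower genes, among them Sulf1, which trims sulphate from heparan chains (5.12 ± 0.77 to 0.736 ± 0.233 CPM), and Cldn2, a claudin of tight junctions (52.9, 62.0 and 8.62 to 3.20, 4.70 and 0.977 CPM).

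Transcripts of white blood cells ran beside these comparisons. Of 25 immune cell markers 15 were tested and 0 called, and 12 of the 15 were fitted higher (52.9% over all genes), with a median log2 of 1.44. Their summed level was 46.8, 4.89 and 17.2 CPM in parental, 70.9, 44.0 and 56.4 CPM in CRISPR_1G2 and 55.2, 55.7 and 47.5 CPM in KO_1E7. Over all tested genes, 28 stood at least 5-fold lower in parental 2 and 3 than in each of the other 7 libraries (CPM plus 0.1, a rule chosen after the values were seen). They included S100a9, Ngp and Ltf, which neutrophils store in their granules and cytosol, Mpo, the myeloperoxidase of myeloid cells, and Ptprc, the pan-leukocyte antigen CD45. S100a9 had 12.3, 0 and 0.0278 CPM in parental and 23.9, 13.8 and 12.7 CPM in CRISPR_1G2, and Ngp had 9.86, 0.0276 and 0.0556 against 17.0, 9.46 and 12.1 CPM. Parental 1 thus stood near the lowest libraries of the clone. When parental 1 was left out, 42 genes were called higher in CRISPR_1G2 and 27 of them were among these 28. The part of these transcripts in other results was not tested, and defining markers such as Ptprc stood at 3.85 CPM or lower in every library.

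**Figure D4:**
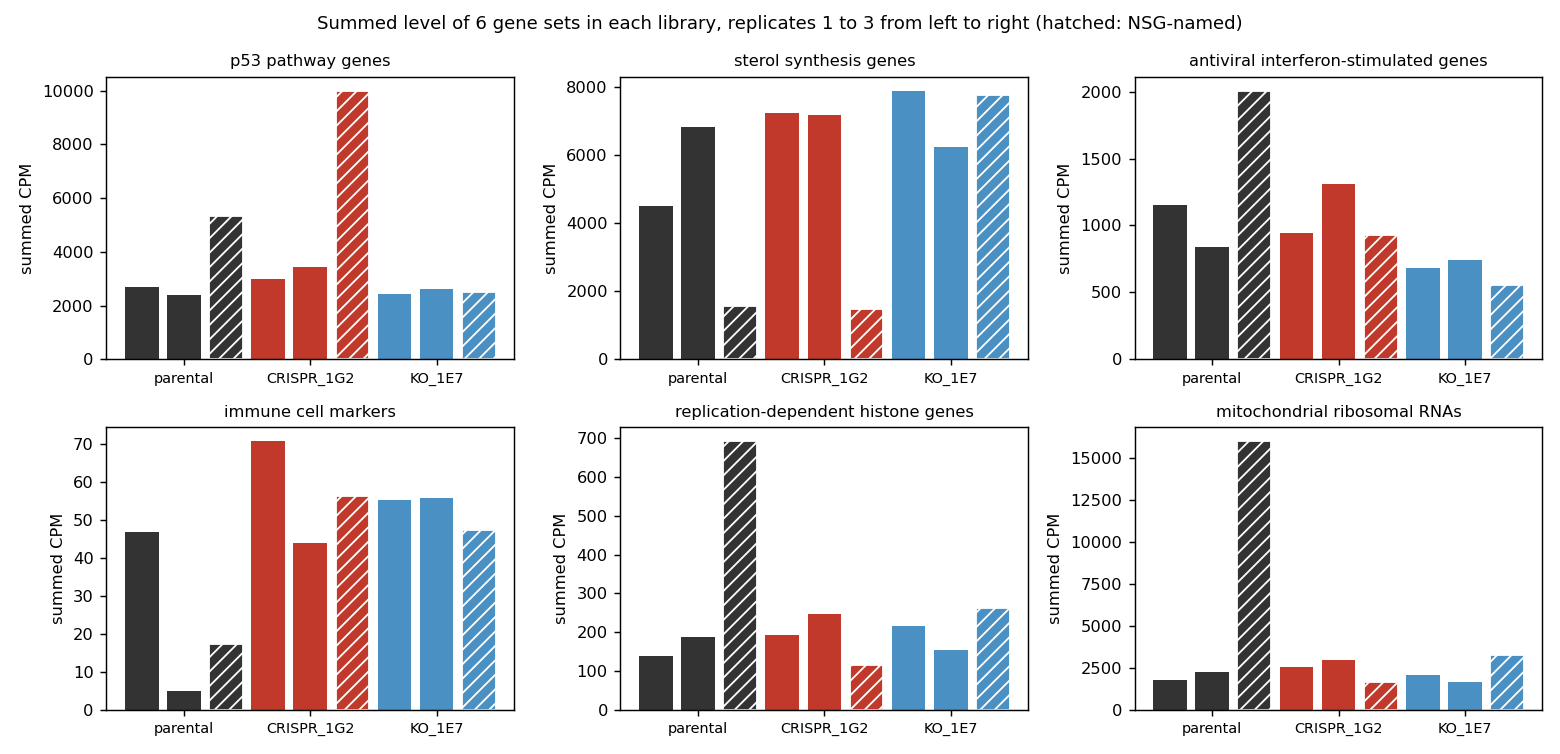
Summed CPM of 6 gene sets in each of the 9 libraries, bars starting at 0, replicates 1 to 3 from left to right within a group and NSG-named libraries hatched. The p53 set is highest in CRISPR_1G2 3, sterol genes are lowest in both NSG-named libraries of the 2 groups compared, immune markers are lowest in parental 2 and 3, and histone genes and mitochondrial ribosomal RNAs are highest in parental 3.

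Gene lists were described by their counts and medians, beside 0.254% called, 52.9% fitted higher and a median of 0.02 over all genes. Of 38 lists, 4 held a called member, and these held 4, 1, 1 and 1. Among 29 tested genes of the p53 pathway, which respond to DNA damage and other stress, 6 lay higher without overlap and 0 lower. Over all genes these shares were 6.64% and 6.45%. The p53 list had 0 of 29 called and 26 fitted higher, with a median log2 fold change of 0.57. Its summed level was 2696, 2399 and 5332 CPM in parental and 2990, 3417 and 10002 CPM in CRISPR_1G2, so the NSG-named library was high in both groups and the pairs that share a name word gave medians of 0.29 and 0.63. Ccng1, a cyclin G gene under p53, stood at 146, 163 and 332 against 257, 273 and 918 CPM (adjusted p = 0.647), with parental 3 above the 2 lowest clone libraries. Cdkn1a and Mdm2, further p53 targets, were fitted lower when CRISPR_1G2 3 was left out (log2 -0.36 and -0.10).

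Interferon genes lay on the lower side. Of 37 antiviral interferon-stimulated genes, 34 were fitted lower and 0 were called, with a median of -0.96, and of 12 interferon-induced GTPases all were fitted lower and 0 called, with a median of -1.37. The antiviral list summed to 1150, 841 and 2008 CPM in parental and to 945, 1309 and 927 CPM in the clone, so parental 3 was the highest and the other libraries overlapped. Within the pairs named 6-3-22 and NSG the antiviral medians were -0.54 and -1.31. Without overlap lay 3 of the 37 genes, all lower, against 6.45% over all genes.

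Epithelial markers had a median of 0.33, with 0 of 24 called and 6 lying higher without overlap, against 6.64% of all genes. Ocln, the gene of the tight junction protein occludin, stood at 4.78, 4.36 and 3.72 against 12.5, 11.8 and 11.1 CPM (log2 1.46 ± 0.39, adjusted p = 0.369). Lamb3, a chain of the laminin under epithelia, is on the list of basal and squamous genes and not among these markers. Its values were 1.07, 0.773 and 1.5 against 2.58, 3.44 and 4.30 CPM. Mesenchymal markers had 0 of 14 called, with 9 fitted higher and a median of 0.12. Without overlap, 3 of the 14 lay lower and 2 higher, against 6.45% and 6.64% of all tested genes. DESeq2 called 1 mesenchymal marker lower and 0 higher, and 0 epithelial markers lower and 1 higher (0.662% lower and 0.179% higher over all genes). The gap of Ocln was wider than the spread of its libraries, whereas that of Lamb3 was narrower than the spread of its CRISPR_1G2 libraries. Neither gene passed the test over all genes.

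DNA replication (35 genes tested), mitosis (35), nuclear-encoded oxidative phosphorylation (42), cytosolic ribosomal proteins (41) and the cAMP and PKA machinery (32) had medians of 0.02, 0.07, 0.01, -0.09 and 0.04 and 0 called genes each. CREB-induced and immediate early genes, which respond to cAMP, had a median of -0.03 and 0 of 25 called. Sterol synthesis genes had a median of 0.30 and 0 of 25 called, and their summed level was 1564 and 1471 CPM in the 2 NSG-named libraries against 4486 to 7240 CPM in the other 4.

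**Figure D5:**
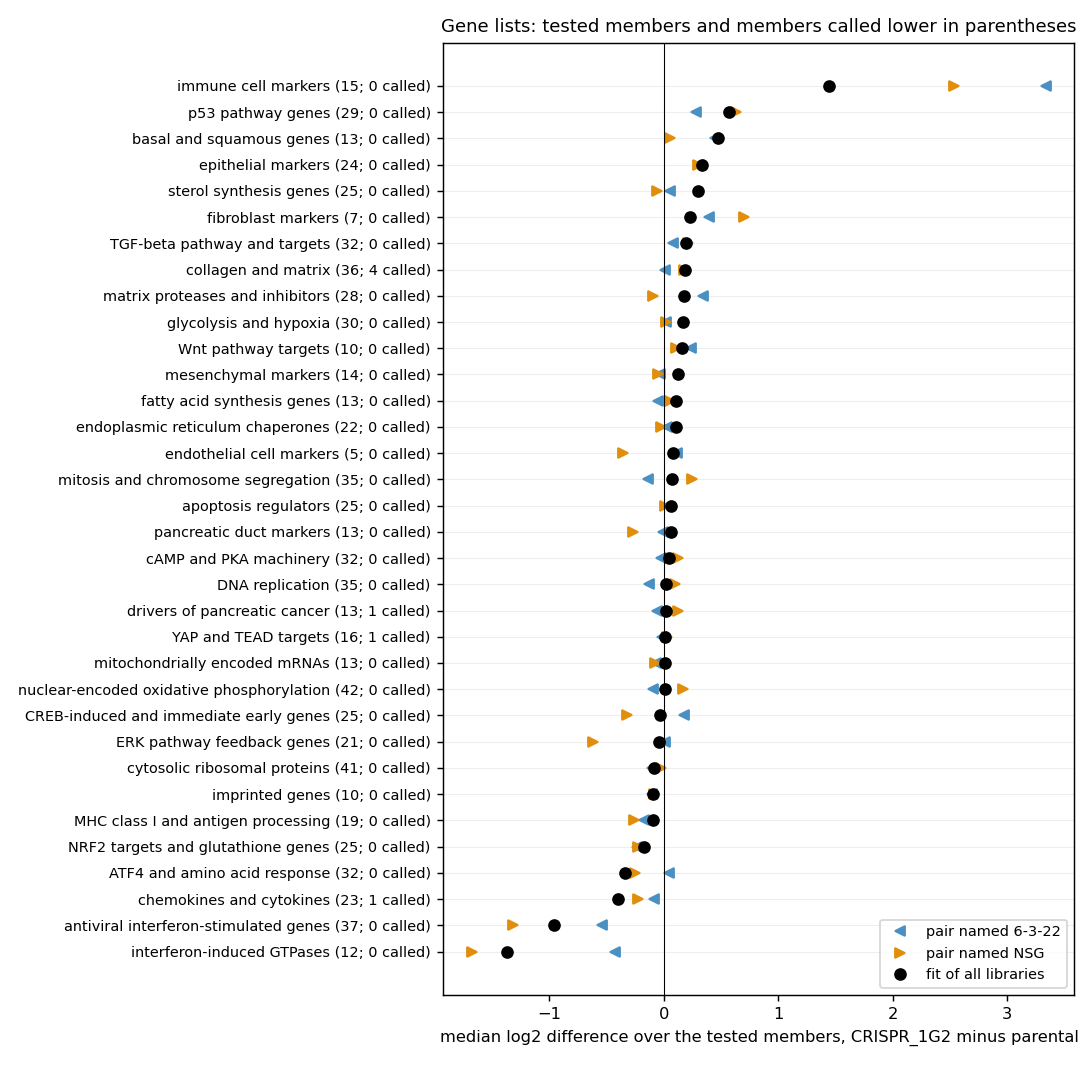
Median log2 difference over the tested members of each gene list, CRISPR_1G2 minus parental, for lists with at least 5 tested genes; the numbers of tested and called genes follow each name. Black circles are the fit of all libraries and triangles the pairs named 6-3-22 and NSG, and the interferon lists lie lowest and the immune markers highest in both pairs.

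Along the genome the differences were unequal. Chromosome 19 had the lowest median, 0.24 below that of all genes on the log2 scale (-0.24), and 17.3% of its 502 tested genes lay lower without overlap and 1.79% higher, against 6.45% and 6.64% over all tested genes. The shift was -0.18 within the pair named 6-3-22 and -0.25 within the pair named NSG. Il33, Pdlim1, Cstf2t and As3mt are the called genes of that chromosome. Chromosomes 16, X and 14 lay on the other side, at 0.14, 0.13 and 0.11 above the median of all genes, and the X also held 6 called genes, 1.40% of its 429, against 0.254% over all genes. In windows of 10 Mb with at least 20 tested genes, the stretch of chromosome 4 from 80000001 to 90000000 that holds Mtap had 13 of 36 genes lower without overlap and 0 higher, and a median 0.42 below that of all genes (-0.42). The lowest median, -0.67 against all genes, was that of chromosome 13 from 20000001 to 30000000, where 1 of 76 genes lay lower without overlap. That window holds Hist1h1e and other histone genes that were high in parental 3. Hist1h1e stood at 3.01, 4.28 and 57.0 CPM in parental and at 6.28, 6.56 and 3.05 CPM in CRISPR_1G2. The part of parental 3 in the median of that window was not tested. At the start of chromosome 19, from 1 to 10000000, 52 of 199 genes lay lower, and on chromosome 7 from 140000001 to 150000000 the median lay 0.41 above that of all genes and 23 of 92 genes lay higher. No test was made for chromosomes, and DNA copy number was not analysed here.

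Of the 80 tested genes next to a called gene on either side, 4 were called, and these were the adjoining pairs Klhl34 with Cnksr2 and Cyp39a1 with Rcan2, each counted from both sides. Without overlap, 22 neighbours lay lower, the called ones among them, and 4 higher, and the median log2 fold change of the 80 was -0.10. Over all tested genes 6.45% lay lower without overlap, 6.64% lay higher and 0.254% were called, and the share among neighbours was not tested. On both sides of Axl, Hnrnpul1 and Gm29763 stood at 0.08 and 0.03, and on both sides of Thbs2, Afdn and Gm3222 stood at 0.10 and -0.11. Neighbours with low values included Ugt1a6a (-2.74), which overlaps Ugt1a7c, and Capn6 (-2.30), beside Pak3, neither of which passed.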

How the data were processed

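RNA from frozen cell pellets was made into oligo-dT-selected, unstranded libraries, per the labels' protocols. The authors deposited read counts per gene, not normalized, with coordinates on GRCm38; the submitters' processing notes name bcl2fastq 2.17, STAR 2.5.2b, featureCounts of Subread 1.5.2 and DESeq2. Which annotation was counted, and with what strand setting, is not given in the sources used here. In all, the table held 49671 genes and 92 spike-in rows, which took 0.344% to 0.820% of counts and were left out. CPM was computed on TMM-scaled library sizes of the tested genes. Genes were tested with edgeR 4.0.16 (robust quasi-likelihood, TMM, its filter on low counts by group) in 1 fit of 9 libraries, called at a Benjamini-Hochberg adjusted p of 0.05. DESeq2 1.42.0, other scalings and filters, blocks and left-out libraries were alternatives. On simulated counts for 15766 genes of this comparison, 28% of 2-fold, 86% of 4-fold and 98% of 8-fold changes were recovered (50 each). In that run 7 unchanged genes were called. The changed genes were drawn from those with an expected count above 50 per library, so rarer genes are not covered. The simulated libraries held no difference between NSG-named and dated ones. R 4.3.3 and Python 3.11.15 were used.

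Groups followed the titles. The members and the gene lists were chosen with earlier results of these data known. The rule named the 12 called genes with the largest change in each direction at a mean of at least 1 CPM, the same with the NSG term, the leading genes of each list and the receptor genes. Other called genes and the higher and white blood cell genes were named after their values were seen. Replicate numbers in the titles were checked for pairing: same-numbered deviations from the group means correlated at 0.243, 0.469 and 0.647 across genes, so blocked counts stand beside the result, although parental 2 correlated most with CRISPR_1G2 1 (0.540). Intervals of pooled counts are exact at 95% and cover counting error only. Some genes are not reported here.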

Additional observations from a re-analysis of the deposited data

Results flagged for a closer look

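The difference between CRISPR_1G2 and parental itself differed between the NSG-named and the dated libraries for 23 genes (edgeR's quasi-likelihood test of the interaction, adjusted p of 0.05, 0.146% of 15766 genes), with 1 NSG-named library per group, so that a difference in parental 3 alone cannot be told apart from one of the NSG-named libraries. All 23 had a more negative difference in the NSG-named pair, and 13 were replication-dependent histone genes. In log2 units, NSG-named minus dated, the interaction was -4.58 for mt-Rnr1 and -3.41 for mt-Rnr2, the mitochondrial ribosomal RNAs, -5.59 for CT010467.1, a ribosomal RNA copy, -5.04 for Hist1h1e, a linker histone gene, and -4.97 for Rgs9, a regulator of G protein signalling. These were high in parental 3: mt-Rnr1 stood at 455, 618 and 6090 CPM in parental and at 678, 852 and 363 CPM in CRISPR_1G2. Histone genes summed to 693 CPM in parental 3 and to 114 to 263 CPM in the other 8 libraries. The part of library preparation in these values was not tested.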

How the results depend on the processing

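The 40 called genes stayed fitted lower under every alternative in which they were tested. Against 40 calls (0 higher, 40 lower, 40 at least 2-fold), DESeq2 gave 174 (37, 137 and 143), the 6 libraries alone 16 (2, 14 and 16), and the replicate block in the 6 libraries 180 (85, 95 and 109). Higher calls numbered 3 with no filter, 2 with 1 CPM in 3 libraries, 1 with the replicate block in 9 libraries, 5 with the NSG term, 4 with a block for each name word, 1 without the NSG-named libraries and 4 without parental 3 and CRISPR_1G2 3, an alternative chosen after seeing the data. Leaving out 1 library gave 15 to 71 calls, 0 to 42 higher, 15 to 33 lower and 15 to 71 at least 2-fold. The fit with the NSG term gave 50, 138 with no filter, 350 in the 6 libraries and 22 to 139 with 1 library left out. The interaction gave 23, 121 by DESeq2 and 167 with no filter. Signs turned for uncalled genes. Vipr2 was at -0.10 (log2) and Flt1 at -0.18 with a block for each name word. Without the NSG-named libraries Ramp3 was at 0.043 and Alas2 at 0.21, and without parental 3 and CRISPR_1G2 3 again at 0.043 and 0.21. Without CRISPR_1G2 3 Ramp3 was at 0.22, Ramp1 at 0.05, Zrsr1 at -0.16, Alas2 at 0.01, Mdm2 at -0.10 and Cdkn1a at -0.36. Without CRISPR_1G2 1 Ramp1 was at 0.07 and Alas2 at 0.13, and without CRISPR_1G2 2 Bhlha15 at -0.09. Without parental 2 Ramp1 was at 0.18 and Bhlha15 at -0.31, and without parental 3 Esam at 0.17 and Alas2 at 0.15. Over the fits that left out 1 library, the lowest or highest values at the other end were -0.54 for Ramp3, -0.51 for Ramp1, 0.56 for Zrsr1, 0.56 for Bhlha15, -0.97 for Esam, -0.34 for Alas2, 1.47 for Mdm2 and 2.46 for Cdkn1a. The cause was not tested. Genes with few counts, Vipr2 among them, are limited by depth.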
